A study of Mus musculus with 8 samples.

Results

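The genes described here were 3 transcription factors of the glucose-sensing Mondo and Mlx system (Mlxip, Mlxipl and Mlx) and 5 genes of the arrestin-domain family (Txnip, Arrdc4, Arrdc3, Arrdc2 and Arrdc1). They were taken by symbol from the expression table, where 8 of the 19301 listed genes matched, and Mlxipl was the only one of them below the filter on low values, so that 7 entered the comparison across genes. The set was chosen by measured values, the differences between HFHG and low glucose in earlier results from the same libraries, and the levels in the 2 media are therefore given as a description with no test. RNA came from primary tendon stem cells (TSCs), which were grown out of mouse (C57BL/6J) patellar tendon after collagenase digestion. The cells were cultured for 4 days in HFHG medium, which contains high glucose and the saturated fatty acid palmitic acid, or in low glucose medium (LG) with the vehicle DMSO and no palmitic acid. Each medium had 4 biological replicates. The base medium of the culture held fetal bovine serum and antibiotics, and the age and sex of the donor mice are not given in the sources used here. Glucose and palmitic acid differed together between the groups, so their parts cannot be told apart.

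Mondo factors couple the supply of glucose to transcription. MLXIP (also called MondoA) and MLXIPL (ChREBP) sit largely outside the nucleus until hexose phosphates accumulate, then enter the nucleus as dimers with MLX and bind the carbohydrate response element, a pair of E-box-like half-sites separated by 5 bases. Txnip and its paralog Arrdc4 are the best known targets of these dimers. Their proteins, like the other alpha-arrestins, carry arrestin folds and recruit NEDD4-family ubiquitin ligases to membrane proteins. TXNIP and ARRDC4 lower glucose uptake by promoting the internalization of glucose transporters, and TXNIP also binds reduced thioredoxin.

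The libraries held 35385644 to 37362725 reads in HFHG and 34308108 to 36308533 in LG, recovered from the FPKM (fragment counts scaled for gene length and library size). The TSC label was checked with lists of cell type markers. All 14 listed tendon stem or progenitor markers were detected above the filter, with Col1a1 at 529 FPKM in HFHG and 206 in LG, although the tendon factor Scx was at 2.27 and 1.45 FPKM and the surface protein Tnmd at 1.1 and 0.614. Macrophage markers were also present. Lyz2, encoding the lysozyme of myeloid cells, was at 1637 FPKM in HFHG and 1765 in LG, and Adgre1, the gene of the F4/80 antigen, was at 26.5 and 38.0, whereas Cd163 was near 0. The summed level of the 9 macrophage markers, nearly all of it Lyz2, was 1711 to 1762 FPKM in HFHG and 1875 to 1955 in LG. On the same list, Csf1r was at 7.92 FPKM in HFHG and 8.69 in LG, and Ptprc at 1.98 and 2.26. Of the 8 tested macrophage markers, 7 were called lower in HFHG and Ptprc was not called. The summed level of the 14 tendon markers was 4375 to 4427 FPKM in HFHG and 3168 to 3229 in LG. Of these, 9 were called higher, 4 were called lower and 1 was not called. Among all 11710 tested genes, 34% were called higher and 30.8% lower at a limma adjusted p below 0.05. Endothelial markers summed to 1.52 to 1.64 FPKM in HFHG and 1.86 to 2.15 in LG, with Pecam1, Cdh5 and Kdr below the filter, and muscle markers to 0.620 to 1.54 and 3.42 to 4.21, with Myod1 near 0. The sum of the adipocyte list, 66.4 to 72.9 FPKM against 23.4 to 29.3, was nearly all Fabp4, while Adipoq, Plin1, Cidec and Lep were below the filter. The part of the macrophage and tendon cell markers in the differences below was not tested. In bulk RNA, fewer cells of a type and less RNA per cell cannot be told apart.

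The promoter sequences are shown first because the element that Mondo dimers bind can be searched for in them. RefSeq windows of 250 bases before to 50 bases after the gene start (GRCm38.p6) were found for all 8 genes, with 11 windows in total because Arrdc3 has 3 starts and Mlxipl has 2. They were searched for the E-box CACGTG, for paired half-sites (CACGNG or CNCGTG, then 5 bases, then either form again) and for the CCAAT box, on both strands. An E-box may be part of a paired match where its letters fit. Part of each window that held an E-box or paired half-sites is printed here from 5′ to 3′ on the strand of the gene, with the E-box or the paired match in capitals.
Txnip, chr3:96557807-96557906, plus strand: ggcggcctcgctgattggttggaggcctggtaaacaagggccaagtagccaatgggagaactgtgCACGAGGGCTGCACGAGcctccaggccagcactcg
Arrdc4, chr7:68749259-68749488, minus strand: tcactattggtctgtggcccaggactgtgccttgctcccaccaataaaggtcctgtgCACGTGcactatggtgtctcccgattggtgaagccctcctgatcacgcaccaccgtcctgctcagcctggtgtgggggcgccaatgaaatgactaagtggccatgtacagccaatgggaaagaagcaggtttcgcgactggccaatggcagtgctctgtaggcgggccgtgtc
Mlxipl, upstream start, chr5:135089765-135089824, plus strand: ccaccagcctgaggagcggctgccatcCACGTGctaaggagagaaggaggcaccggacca
Mlx, chr11:101087223-101087272, plus strand: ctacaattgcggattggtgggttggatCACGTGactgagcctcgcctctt

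Txnip was the only gene of the 8 with paired half-sites in its window. The match lay 85 to 69 bases before the start (chr3:96557872-96557888), with CCAAT boxes at 102 to 98 bases and, in the reverse orientation, at 137 to 133 bases before the start. Such paired half-sites were found in 27 of 32851 RefSeq mouse windows (0.0822%), which belonged to 26 of 27025 genes. The E-box was found in 2349 windows (7.15%), among them those of Arrdc4 at 193 to 188 bases, of Mlx at 40 to 35 bases and of the upstream start of Mlxipl at 98 to 93 bases before the start. The downstream start of Mlxipl, 17001 bases further along the gene, had none of the searched motifs. The CCAAT box, present in 37.4% of the windows, occurred 6 times in the Arrdc4 window, 3 times in that of Arrdc2, and 0 times in that of Arrdc1. These are matches of letters and were not tested as binding sites. The search would miss elements with other letters or spacing and elements outside the windows. A gene without a match may therefore still hold a carbohydrate response element.

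**Figure D1:**
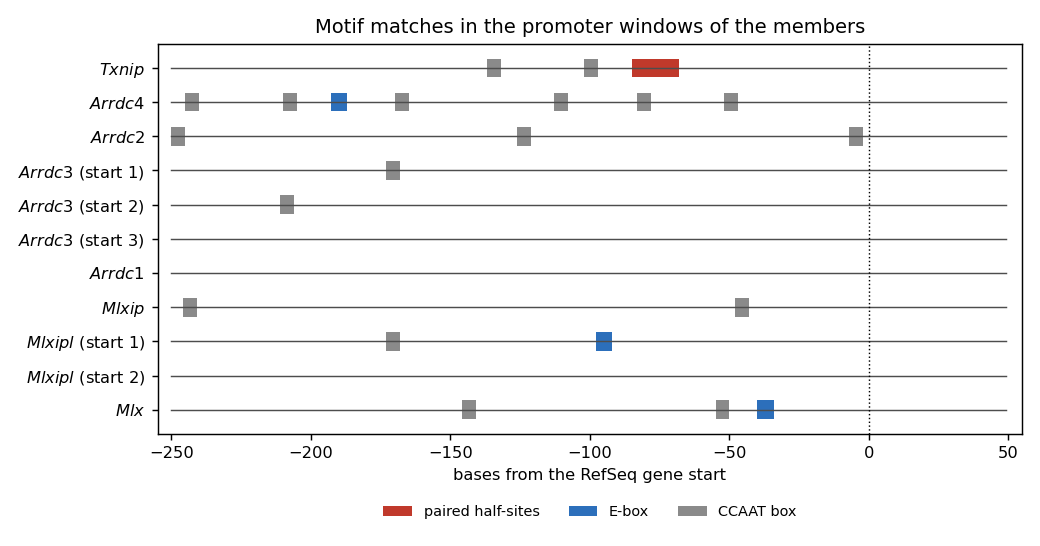
Positions of motif matches in the 11 RefSeq promoter windows of the 8 genes, as bases from the gene start (dotted line at 0) on the strand of the gene. The paired half-sites (red) were found in the Txnip window alone, and the E-box (blue) in the windows of Arrdc4, Mlx and the upstream start of Mlxipl.

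Txnip, the thioredoxin interacting protein gene (NCBI gene 56338; chr3:96557957-96561883, plus strand, GRCm38), had the largest log2 difference of all 11710 tested genes. Its level was 193, 187, 187 and 186 FPKM in HFHG replicates 1 to 4 and 2.85, 3.30, 2.90 and 2.63 FPKM in LG replicates 1 to 4. The lowest HFHG library therefore stood far above the highest LG library. These values rested on 18550 to 20174 reads per library in HFHG and 262 to 336 in LG. Mean levels were 188 ± 2.99 FPKM for HFHG against 2.92 ± 0.281 FPKM for LG (SD, n = 4 each), a ratio of 64.5. On the scale of log2(FPKM + 0.1) the difference, HFHG minus LG, was 5.97 (SE 0.055). Txnip transcripts took 0.0522% to 0.0540% of all reads in HFHG and 0.000736% to 0.000925% in LG. In the GENCODE annotation, the antisense gene Gm15441 lies over all 3927 bases of Txnip, and whether the counting used the strand is not given in the sources used here.

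Arrdc4 (NCBI gene 66412; chr7:68736995-68749241, minus strand), the closest paralog of Txnip, was next among the 8 genes. It was at 23.1, 24.1, 25.0 and 22.1 FPKM in HFHG replicates 1 to 4 and at 9.20, 8.98, 8.80 and 9.12 FPKM in LG. The groups did not overlap, and the LG libraries lay closer together than the HFHG libraries did. The mean was 23.6 ± 1.23 FPKM (SD, n = 4) against 9.03 ± 0.178 (SD, n = 4), a ratio of 2.61 and a log2 difference of 1.37 (SE 0.0433), which ranked 204 among the tested genes. The variance of its reads was 9.28 times that of counting alone in HFHG and 0.488 times in LG. Unlike Txnip, Arrdc4 was well expressed in low glucose, where it was the most abundant transcript of the 5 arrestin-domain genes.

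**Figure D2:**
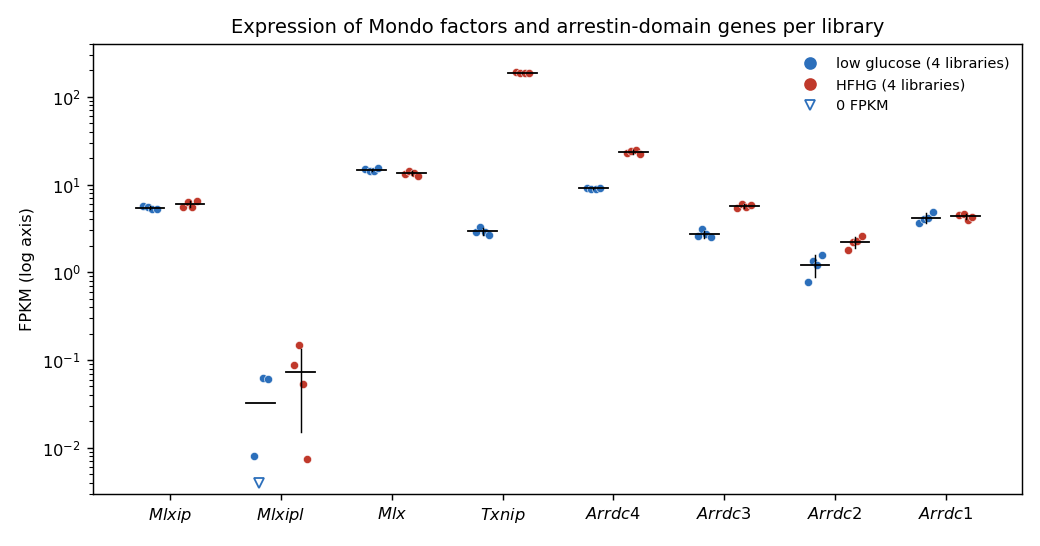
FPKM of the 8 genes (log axis) in the 4 low glucose and the 4 HFHG libraries. Each point is a library, horizontal lines are group means and vertical lines the SD, drawn where it stays above 0. The open triangle marks the library with 0 FPKM of Mlxipl. Txnip was near the level of Arrdc3 in low glucose and the highest of the 8 genes in HFHG, and Mlxipl lay below 0.15 FPKM in every library.

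Arrdc3 (NCBI gene 105171; chr13:80883384-80896042, plus strand), an adaptor known to act on integrin beta4, was at 5.40, 5.93, 5.52 and 5.89 FPKM in HFHG and at 2.58, 3.08, 2.74 and 2.51 FPKM in LG. Every HFHG library was above every LG library. The means of 5.69 ± 0.264 and 2.73 ± 0.256 FPKM (SD, n = 4 each) differed by a ratio of 2.08 and by 1.04 on the log2 scale (SE 0.0732), at rank 399. Arrdc2 (NCBI gene 70807; chr8:70835129-70839720, minus strand), another plasma membrane member of the family, was the least abundant of the 5. It was at 1.79, 2.24, 2.26 and 2.57 FPKM in HFHG and at 0.770, 1.34, 1.20 and 1.59 FPKM in LG. The groups were separate by a narrow margin, and replicate 1 was the lowest library of both groups. The log2 difference was 0.83 (SE 0.178), at rank 635, and 0.54 with a pseudocount of 1.

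Arrdc1 (NCBI gene 215705; chr2:24925352-24935252, minus strand), whose protein drives the budding of small vesicles from the plasma membrane, was the one arrestin-domain gene whose groups overlapped. It was at 4.52, 4.67, 3.96 and 4.23 FPKM in HFHG and at 3.68, 4.06, 4.18 and 4.89 FPKM in LG. Both the lowest and the highest of the 8 libraries were LG libraries. The log2 difference was 0.05 (SE 0.0862), at rank 5406, and it turned to −0.022 with quantile normalization and to −0.0083 without LG replicate 1, so that no direction is given for it.

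The arrestin-domain transcripts differed between the media in composition as well as in amount. The summed FPKM of the 5 genes was 221 to 228 in HFHG and 19.1 to 20.8 in LG. Txnip made up 83.5% to 84.7% of that sum in HFHG and 12.7% to 15.9% in LG, while Arrdc4 made up 9.99% to 11.2% in HFHG and 43.2% to 48.2% in LG. Without Txnip, the sum of the other 4 genes was 34.8 to 36.9 FPKM in HFHG and 16.2 to 18.1 in LG. The Txnip level was 7.49 to 8.44 times that of Arrdc4 in HFHG and 0.288 to 0.368 times in LG, so the order of the paralogs was opposite in the 2 media.

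**Figure D3:**
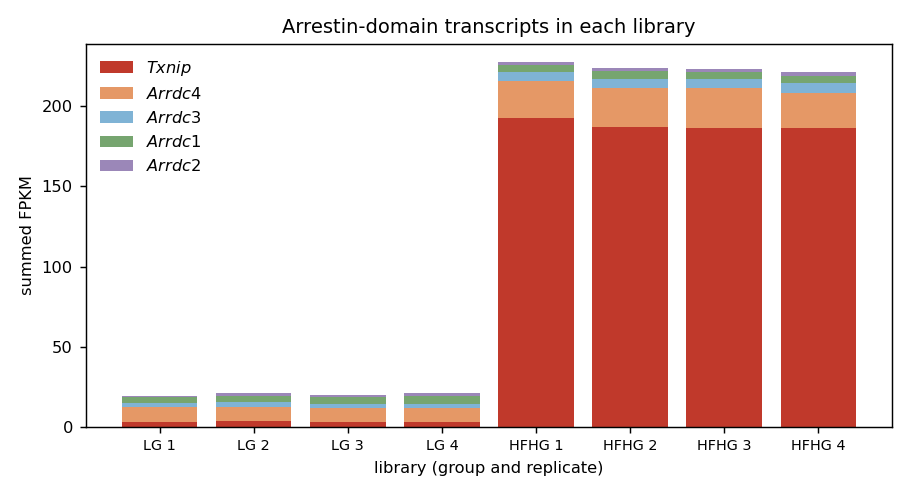
Stacked FPKM of the 5 arrestin-domain genes in each of the 8 libraries (linear axis from 0). The total lay between 19.1 and 20.8 FPKM in the LG libraries and between 221 and 228 FPKM in the HFHG libraries, and Txnip filled most of the HFHG bars.

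Among the Mondo and Mlx factors, Mlxip and Mlx had log2 differences of 0.13 and −0.14. Mlxipl lay below the filter, and a fit without the filter gave it a log2 difference of 0.36 (SE 0.262) from few reads. Mlxip (NCBI gene 208104; chr5:123394798-123457932, plus strand), which encodes MondoA, was at 5.58, 6.26, 5.55 and 6.52 FPKM in HFHG and at 5.74, 5.61, 5.26 and 5.23 FPKM in LG. The groups overlapped, since HFHG replicates 1 and 3 lay within the LG range. The means were 5.98 ± 0.489 and 5.46 ± 0.256 FPKM (SD, n = 4 each), and the SE of the log2 difference was 0.0657, at rank 4411. Its reads varied 11.8 times as much as counting alone gives among the HFHG libraries.

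Mlx (NCBI gene 21428; chr11:101087277-101092207, plus strand), the shared dimer partner, was at 13.3, 14.2, 13.6 and 12.5 FPKM in HFHG and at 15, 14.3, 14.4 and 15.3 FPKM in LG. All HFHG libraries were below all LG libraries, and the closest libraries were 14.2 and 14.3 FPKM. The mean of 13.4 ± 0.709 FPKM in HFHG was 0.911 times the mean of 14.7 ± 0.481 in LG (SD, n = 4 each), a log2 difference of −0.14 (SE 0.0457). The opposite-strand gene Psmc3ip overlaps Mlx by 385 bases and was at 0.486 to 0.749 FPKM. Mlx was 1.92 to 2.44 times as abundant as both Mondo transcripts together in HFHG and 2.54 to 2.88 times in LG.

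Mlxipl (NCBI gene 58805; chr5:135089890-135138382, plus strand), which encodes ChREBP, the Mondo factor of liver and fat, had few reads. It had 12, 19, 7 and 1 reads in HFHG and 1, 0, 8 and 8 reads in LG, which is at most 0.147 FPKM. The library with 0 reads, LG replicate 2, allows up to 3 reads or 0.0226 FPKM. The groups overlapped. In sum, 39 of 145290090 reads in HFHG stood against 17 of 141645545 in LG, a ratio of 2.24 with an exact 95% interval of 1.24 to 4.22 that covers counting error only. Reads varied 6.18 times as much as counting alone gives among the HFHG libraries and 4.42 times among the LG libraries. Mlxipl made up 0 to 2.29% of the summed FPKM of both Mondo genes in any library, and the rest was Mlxip.

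Read against all tested genes, these differences need the background of a comparison in which most genes moved. Among the 11710 tested genes, 3983 (34%) were called higher and 3609 (30.8%) lower in HFHG at a limma adjusted p below 0.05. The higher genes were 52.5% of all calls, 60.9% after equal-sum scaling of the libraries and 46.7% after median-ratio scaling, which puts the lower genes in the majority. The libraries did not overlap for 3642 higher (31.1%) and 3294 lower genes (28.1%). Of the 7 tested genes of the set, 4 were higher without overlap (Txnip, Arrdc4, Arrdc3 and Arrdc2), 1 was lower without overlap (Mlx), and 2 overlapped (Arrdc1 and Mlxip). A log2 difference above 1 was seen for 3 of the 7 (Txnip, Arrdc4 and Arrdc3) and for 431 of all tested genes (3.68%), and Arrdc3 lay just inside that limit, at 0.9992 to 1.09 with 1 library left out and 0.84 with a pseudocount of 1. The genes were chosen with these differences known, so nothing is read from the shares. In order of level, HFHG cells had Txnip, Arrdc4, Mlx, Mlxip, Arrdc3, Arrdc1, Arrdc2 and Mlxipl, and only the ranges of the neighbours Mlxip and Arrdc3 overlapped. In LG the order was Mlx, Arrdc4, Mlxip, Arrdc1, Txnip, Arrdc3, Arrdc2 and Mlxipl, and only Txnip and Arrdc3 overlapped.

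**Figure D4:**
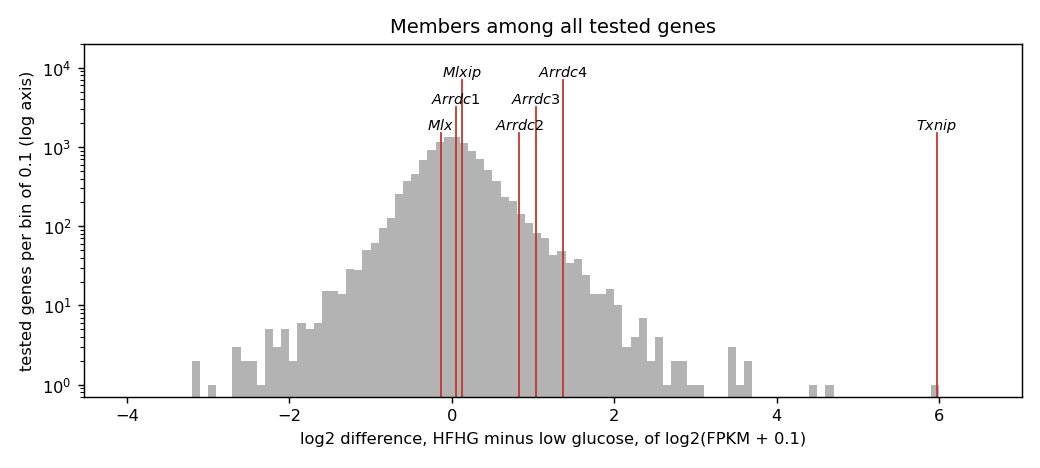
Histogram of the log2 difference, HFHG minus LG, of log2(FPKM + 0.1) for the 11710 tested genes (bins of 0.1, log axis of gene number). Red lines mark the 7 tested genes of the set, from Mlx at −0.14 to Txnip at 5.97.

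Other genes of the pathway were taken from 8 lists, and their calls come from the limma fit across all tested genes with Benjamini-Hochberg adjustment. The median log2 difference of all tested genes was 0.02, and 34% of them were called higher and 30.8% lower. The counts of each list below stand beside these shares. The other Mondo target genes moved in both directions: 7 of the 14 tested were higher, 4 lower and 3 not called, with a median of 0.09. Fructokinase Khk rose from 2.08 ± 0.285 to 3.51 ± 0.491 FPKM (log2 difference 0.73, adjusted p = 0.000123), and Acacb, an acetyl-CoA carboxylase, rose by 0.77 (adjusted p = 0.000413). Klf10 (0.60, adjusted p = 2e-05), Mttp (0.53, adjusted p = 0.000624), Scd1 (0.17) and Me1 (0.09) were also called higher. The 4 lower targets were Hk2 (−1.49, adjusted p = 9.9e-13), the fatty acid synthase gene Fasn (−0.39), the G-protein regulator Rgs16 (−0.33) and the transketolase gene Tkt (−0.28). Fgf21, a hormone of fasting and carbohydrate feeding, was called higher by 1.5 (adjusted p = 0.0243), but its libraries overlapped at 0.520 to 2.38 and 0.0291 to 0.585 FPKM, and the call was lost without HFHG replicate 1 (1.46) or 3 (1.09) and without LG replicate 2 (1.0) or 3 (1.42). The classical liver target Pklr was at 0.0374 FPKM in HFHG and 0.0145 in LG and was not tested.

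Genes that phosphorylate hexoses, the step that gives the metabolites Mondo factors respond to, were mostly lower. Of 6 tested, 2 were higher and 4 lower, with a median of −0.24. Hk2, the inducible hexokinase, fell from 46.5 ± 0.884 FPKM in LG to 16.4 ± 0.412 in HFHG (log2 difference −1.49). Hk1, the most abundant hexokinase here, fell from 67.5 to 57.9 FPKM (−0.22, adjusted p = 1.49e-05), and Hk3 (−0.52) and the glucose-6-phosphate carrier Slc37a4 (−0.26) were lower as well. G6pc3, a glucose-6-phosphatase expressed in many tissues, was higher by 0.15 (adjusted p = 0.00469).

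Cargo and partners of the arrestin-domain proteins followed. Among 7 tested glucose transporters, receptors and other proteins that they bind, 2 were higher, 4 lower and 1 not called, with a median of −0.17. Slc2a1, the transporter GLUT1 that TXNIP removes from the cell surface, fell from 353 ± 7.27 FPKM in LG to 171 ± 4.02 in HFHG (log2 difference −1.04, adjusted p = 2.46e-12), and Slc2a3 (GLUT3) fell from 3.19 to 1.72 FPKM (−0.86, adjusted p = 3.92e-06). Itgb4, which ARRDC3 binds, was higher at 0.770 against 0.406 FPKM (0.78, adjusted p = 0.000174). The insulin-responsive transporter Slc2a4 was below the filter.

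Of the 5 thioredoxins and thioredoxin reductases, 3 were lower and the other two were not called, with a median of −0.29. Txn1, the cytosolic thioredoxin bound by TXNIP, fell from 204 ± 6.98 to 166 ± 5.82 FPKM (−0.29, adjusted p = 3.8e-06). The mitochondrial Txn2 (−0.71, adjusted p = 9.6e-10) and the cytosolic reductase Txnrd1 (−0.74, adjusted p = 1.99e-11) fell further. Txnrd2 (−0.15) and Txnrd3 (0.02) did not pass the test.

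The MYC, MAX and MXD factors share the basic helix-loop-helix zipper fold with the Mondo factors, and MXD proteins and MNT can also pair with MLX. Of 8 tested, 3 were higher, 3 lower and 2 not called, with a median of 0.04. Myc fell from 20.4 ± 0.974 to 9.92 ± 0.994 FPKM (−1.04, adjusted p = 2.18e-08), Max from 34.7 to 27.0 FPKM (−0.36, adjusted p = 1.12e-06), and Mnt from 5.58 to 4.65 FPKM (−0.26, adjusted p = 0.00254). Mxd4 rose from 20.4 ± 1.07 to 38.8 ± 2.08 FPKM (0.93, adjusted p = 2.84e-09) and Mxd1 from 1.64 to 2.40 FPKM (0.52, adjusted p = 0.000375).

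The NEDD4 family ubiquitin ligases, which alpha-arrestins recruit, were split, with 2 of 7 tested higher, 3 lower and 2 not called around a median of −0.00. Smurf1 fell by 0.61 on the log2 scale (adjusted p = 4.39e-09) and Wwp2 by 0.33 (adjusted p = 0.000293), and Wwp1 rose by 0.30 (adjusted p = 0.000179). Other arrestins and the VPS26 proteins, which share the arrestin fold, had 2 of 5 higher and 2 lower with a median of 0.09. Arrb1, beta-arrestin 1, rose by 0.36 (adjusted p = 0.00052) and Vps26a fell by 0.61 (adjusted p = 4.37e-09). The remaining alpha-arrestin Arrdc5 was listed at 0 in all HFHG libraries and at most 0.106 FPKM in LG.

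Txnip also responds to glucocorticoids, so genes that these hormones induce were counted. Of 10 tested, 5 were higher, 3 lower and 2 not called, with a median of 0.15. Sgk1 rose from 31.2 ± 1.16 to 57.4 ± 0.893 FPKM (0.88, adjusted p = 1.37e-10) and Per1 from 2.13 to 3.96 FPKM (0.87, adjusted p = 5.3e-07), whereas the metallothioneins Mt1 (−1.03, adjusted p = 9.23e-11) and Mt2 (−0.95, adjusted p = 5.45e-11) fell. Dusp1 was at 56.1 and 56.4 FPKM.

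**Figure D5:**
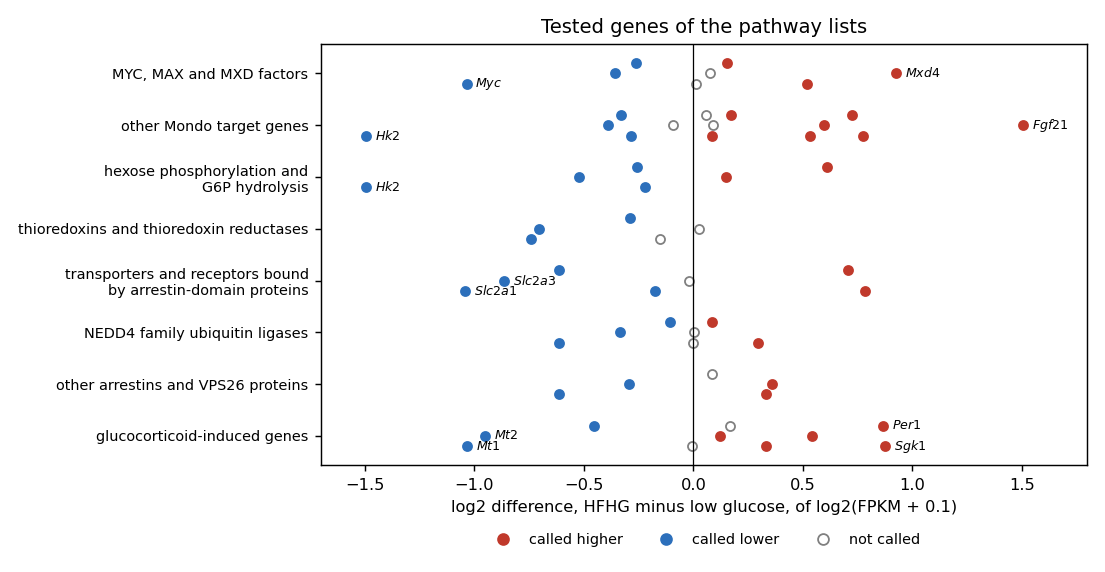
Log2 difference, HFHG minus LG, of the tested genes of the 8 pathway lists. Each point is a gene, filled red where called higher, filled blue where called lower and open where not called, and genes beyond 0.8 in either direction are named (Hk2 belongs to 2 lists). Called genes lie on both sides of 0 in 7 of the 8 lists, and the called thioredoxin genes were lower.

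The genes whose pattern lay nearest to that of Txnip were ranked by the root mean square difference of the 8 log2 values, each gene centred on its LG mean. Pdk4, a kinase that switches off pyruvate dehydrogenase, was nearest at a distance of 0.93 and went from 1.86 ± 0.170 to 49.1 ± 0.467 FPKM. The cytokine gene Tslp followed at 1.06, with 4.91 ± 0.910 and 110 ± 3.57 FPKM, and Cilp, Atoh8 and Cyp2f2 lay at 1.66 to 1.69. Arrdc4 had much closer neighbours, namely Col1a1 at 0.0509, Dkk3 at 0.0537, Igfbp4 at 0.0592, Cx3cl1 at 0.0628 and Hspb7 at 0.0631. These distances reflect mainly the difference between the groups that chose the set, and no test is attached to them.

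Annotation in the deposited table placed protein transport (622 genes) on 5 of 5 arrestin-domain genes and plasma membrane (4053 genes) on 4 of 5, with Txnip the exception. Protein dimerization activity (161 genes) stood on 3 of 3 Mondo and Mlx genes.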

How the data were processed

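mRNA of TSCs was sequenced from libraries made with a stranded kit. The authors deposited FPKM for 19301 genes in 8 libraries with gene annotation columns, and no library was pooled. The submitters' processing notes name HISAT2 2.1.0 and mm10; the counting program, annotation and strand setting are not given in the sources used here, so reads of paralogs or overlapping genes may be split in an unknown way. The sample titles gave the group and the replicate number. Whole reads were recovered from the FPKM for 100% of the genes (tolerance 0.0001) and served for depth, for genes with few reads and for an alternative. Genes with at least 0.5 FPKM in at least 4 libraries were compared with limma 3.58.1 (R 4.3.3; lmFit, eBayes with trend) on log2(FPKM + 0.1), which understates changes of low genes, with Benjamini-Hochberg adjustment over 11710 genes and a threshold of 0.05. The script was tested on simulated data.

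The members and the gene lists were chosen with earlier results of these data known. From each pathway list, up to 4 called genes with the largest log2 difference were eligible to be named. Max, Mnt, Txn1, Slc2a1, Hk1 and Hk2 were named in any case. Other genes were named after their values were seen. These were Scx, Tnmd, Pklr, Slc2a4, Arrdc5, Dusp1, Txnrd2, Txnrd3, G6pc3, Fasn, Rgs16, Tkt, Klf10, Mttp, Scd1 and Me1. Fam124a, Nfkb2, Arl2bp, Fnip1, Rbbp4, Man2b2 and the markers of other cell types were also named in this way. Gene positions come from GENCODE M21 (GRCm38), where 96.2% of the gene names were found, and promoter windows from RefSeq. The fit was repeated with other pseudocounts (1 and 0.01), without a filter or with one at 1 FPKM, with 3 rescalings, a block for replicate number, robust eBayes, voom on the recovered reads and each library left out in turn. The deposited annotation gave the NCBI gene numbers and GO terms. Protein sequences were not analysed here, and some listed genes are counted but not reported here by name. Intervals and limits of reads cover counting error only. The p-values measure the spread between these cultures.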

Additional observations from a re-analysis of the deposited data

Results flagged for a closer look

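In groups of 4 libraries, a library was picked out where its gap to the nearest other library exceeded, as a share of the range, Dixon's critical value at 95%. This held for 7 of 80 groups of named genes, and chance gives about 1 in 20. Txnip in HFHG replicate 1 was at 192.8 FPKM, above 186.5 to 187.2 in the other HFHG libraries, a gap that is small beside the difference between the media. Slc2a1 in LG replicate 4 was at 363.4 FPKM (others 348.2 to 349.9), Hk2 in LG replicate 4 at 45.14 (others 46.80 to 46.95) and Mt1 in LG replicate 4 at 1290 (others 1130 to 1156). Slc37a4 in HFHG replicate 4 was at 4.507 FPKM (others 5.452 to 5.633), Txn2 in HFHG replicate 4 at 56.61 (others 60.69 to 61.26) and Slc2a3 in LG replicate 2 at 3.001 (others 3.256 to 3.263).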

How the results depend on the processing

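The 59 results were recomputed under up to 18 alternatives each. Of the values, 1040 were labelled the same, 8 moved, 8 weaker (a lost call) and 2 reversed. The same meant a count within a factor of 1.5 or a member difference of unchanged direction within its spread. For a list gene it meant an unchanged direction and call. The 1040 include the differences under the replicate block, which cannot change. With a pseudocount of 1, the log2 difference was 5.60 for Txnip, 1.29 for Arrdc4 and 0.84 for Arrdc3, and with FPKM rescaled to the same sum it was 1.43 for Arrdc4. Arrdc1 turned to −0.022 with quantile normalization and ranged from −0.0083 to 0.13 with 1 library left out. The count of genes called higher fell to 1 in the hexose phosphorylation list (minimum of 1 FPKM, quantile normalization), in the transporter and receptor list (minimum of 1 FPKM) and among the NEDD4 ligases (median-ratio scaling). Smurf2 lost its call with quantile normalization and the same sum, and Fgf21 without the filter (1.5). The pseudocount of 1 also lowered Acacb to 0.38 and Itgb4 to 0.33. Over all alternatives, Mlxip lay between 0.057 and 0.18 and Mlx between −0.17 and −0.076. Rescaling moved the median of all genes to at most 0.0749. The cause was not tested.

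No pairing by replicate number was seen in the deviations from the group means. The correlations of same-numbered libraries were −0.0736 to −0.0056, and no library correlated most with the one of its own number. Whether same-numbered cultures shared an isolation or plating was not tested. With the replicate block, 7342 genes were called (52.3% higher). In this balanced design the block cannot change a log2 difference, so the unchanged differences under it, such as 0.052 for Arrdc1, are no check. Depth limits Mlxipl, which had at most 19 reads in a library.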

Other observations

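Genes with paired half-sites in their promoter window were counted beside Txnip. Of the 26 genes, 21 were in the table and 13 were tested, with 4 called higher, 3 lower and a median log2 difference of 0.05, where 34% of all tested genes were called higher and 30.8% lower, and Txnip was the only one above 1. The genes called higher beside Txnip were Fam124a (0.40), Nfkb2 (0.15) and Arl2bp (0.11), and those called lower were Fnip1 (−0.48), Rbbp4 (−0.25) and Man2b2 (−0.16). Fnip1 encodes a folliculin partner of nutrient sensing, and it went from 12.5 ± 0.588 FPKM in LG to 8.91 ± 0.226 in HFHG. Of 1116 tested genes with the E-box in their window, 277 (24.8%) were called higher and 479 (42.9%) lower, beside 34% and 30.8% of all tested genes, with a median of −0.09 beside 0.02. These genes were found by sequence alone and the counts are a description.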
